A study of Arabidopsis thaliana with 64 samples.

Results

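The levels of 10 genes that set the size of *Arabidopsis thaliana* leaves were followed through inbred parents, their F1 hybrids and F4 lines. The genes were chosen by identifier and are ERECTA (AT2G26330), ANT (AT4G37750), GRF1 (AT2G22840), GRF2 (AT4G37740), GRF3 (AT2G36400), GRF5 (AT3G13960), AN3 (AT5G28640), ARGOS (AT3G59900), BB (AT3G63530) and KLU (AT1G13710). All 10 were found among the 33321 gene rows counted at both ages. RNA was sequenced in 64 libraries that form 32 groups, each with 2 pools of 5 plants.

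The parents were the inbred accessions C24 and Ler (Landsberg erecta). Ler carries a mutant ERECTA, in which a missense change alters the kinase domain of the receptor, and counts of reads do not tell its allele from that of C24. Plants grew in 16 h of light at 22 °C by day and 18 °C by night, in 2 batches that differed in the light tubes. Batch 1 held C24, Ler, the F1 of C24 as mother and Ler as father (C24xLer) and the F4 lines L1-1, L1-2, L2-1 and L2-2. Batch 2 held its own C24 and Ler pools, the reciprocal F1 (LerxC24) and the F4 lines L3-1, L3-2, L4-1 and L4-2. The L lines are called hybrid mimics in the protocols. The F4 lines S1-1 and S2-1 have no batch of their own in the labels, and the smallest C24 and smallest Ler seedlings of batch 1 were the 5 smallest of 50. At 15 days after sowing (DAS) the aerial tissue of seedlings was taken (18 groups, 36 libraries), and at 28 DAS the 4 largest leaves of plants moved to soil at 18 DAS (14 groups, 28 libraries), with no S line and no smallest seedlings. Age, tissue and growth on plate or soil therefore changed together.

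Leaves reach their size mainly through how many cells they make and how long the cells keep dividing. GRF1, GRF2, GRF3 and GRF5 are growth-regulating transcription factors, and AN3 (also called GIF1) is the coactivator that binds them, and together they keep cells of young leaves dividing. ANT is an AP2-type transcription factor that prolongs division and acts downstream of ARGOS, an auxin-induced promoter of organ growth. KLU is a cytochrome P450 of the CYP78A family that promotes growth of young organs, and BB (BIG BROTHER) is a ubiquitin ligase that limits it. ERECTA is a leucine-rich repeat receptor kinase at the cell surface that reads EPF and EPFL peptides and shapes stem length, leaf form and stomatal spacing.

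The microRNA miR396 cleaves the mRNA of several GRF genes and lowers them as leaves age. Its mature forms are shown because the pairing separates GRF1, GRF2 and GRF3 from GRF5 among the genes followed here. Sequences and positions were read from the RefSeq assembly TAIR10.1, and capitals mark the seed, bases 2 to 8.
ath-miR396a-5p: uUCCACAGcuuucuugaacug
ath-miR396b-5p: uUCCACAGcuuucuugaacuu
They lie at chr2:4142443-4142463 on the minus strand and chr5:13611808-13611828 on the plus strand, and they differ by G21U, counted from the 5′ end. Their precursors are not among the gene rows, so the level of miR396 is not analysed here.

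The best stretch for ath-miR396a-5p in the spliced mRNA of each member was found with G:U pairs counted as differences and 1 unpaired base allowed. Capitals mark the bases of the mRNA that pair.
GRF1 site: ucGUUCAAGAAAGcCUGUGGAA
GRF2 site: ucGUUCAAGAAAGcCUGUGGAA
GRF3 site: CcGUUCAAGAAAGcCUGUGGAA
These lie in coding sequence of exon 3, at chr2:9729944-9729965 on the plus strand for GRF1, chr4:17726404-17726425 on the minus strand for GRF2 and chr2:15271745-15271766 on the minus strand for GRF3. GRF1 and GRF2 have 3 differences each and GRF3 has 2. Stretches with at most 3 differences occurred in 11 of 31342 genes with an mRNA (0.0351%), and 7 of the 11 were GRF genes. GRF5, AN3, ANT, ARGOS, BB, KLU and ERECTA had 7 or 8 differences at their best stretch, which is a statement about these letters only.

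The genes are spread over all 5 chromosomes. ERECTA covers chr2:11208080-11214662 on the minus strand with 27 exons and overlaps no other gene. GRF2 and ANT are neighbours on chromosome 4 (chr4:17725337-17727909 and chr4:17739514-17742407), with 11604 bases and 1 annotated gene between them. GRF1, GRF3 and BB overlap other genes. GRF1 shares 23 bases with bZIP6 on the opposite strand, GRF3 shares 5 bases with the starch-branching enzyme gene SBE2.1 and 227 bases with the long noncoding RNA gene AT2G08795, not analysed here, both on the opposite strand, and BB shares 24 bases with CCD1 on the opposite strand and 91 bases with AT3G63540 on its own strand. The use of strand in counting is not given in the sources used here, so reads in those stretches cannot be assigned.

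Library totals ran from 36324848 to 88844771 counts at 15 DAS and from 40347313 to 256721442 at 28 DAS. Levels are given as CPM, counts relative to the library total, with totals scaled by the trimmed mean of M values (TMM), and for each group the first value is the first pool and the next the second pool. Differences are log2 fold changes with their standard error from edgeR's quasi-likelihood test, and a gene is called when its Benjamini-Hochberg adjusted p over all tested genes is below 0.05. At 15 DAS the second C24 pool of batch 1 and the second pool of smallest C24 seedlings were unusually close. Their chi-square per gene was 2.456, far below that of any other pair examined. Values of the smallest C24 seedlings therefore rest partly on a library that may be shared. The next pair was the second pools of L3-1 and L3-2 in seedlings (17.641), against 77.878 and 74.677 between the pools of each line. L1-1 and L1-2 were likewise closer across lines (18.439 and 22.345) than within (116.048 and 129.699). Pools of such lines may thus not be independent. The second pool of L4-2 at 28 DAS has a label that calls it 15-day seedlings. Its counts correlated at 0.96 to 0.991 with the other 28 DAS libraries and at 0.929 to 0.946 with the 15 DAS libraries, and it was kept at 28 DAS by its title.

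In seedlings ERECTA was the highest of the 10 genes also per kilobase of mRNA, with a median of 23.1 CPM per kb, followed by BB (17.45) and GRF3 (16.1), and KLU (2.80) and ARGOS (2.64) were at the other end. In leaves BB was highest at a median of 22.0 CPM per kb, and ERECTA came next at 9.93. AN3 (0.224) and KLU (0.0245) were lowest in leaves. KLU had no read in 4 of the 28 leaf libraries, where a count of 0 allows up to 0.0395 to 0.101 CPM (3 counts per library, counting error only).

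The genes differed in how steady they were. In the 36 seedling libraries BB ran from 24.6 to 32.4 CPM with a median of 28.4, a coefficient of variation of 7.56%, and ERECTA from 74.9 to 114.5 CPM with a median of 92.0 (10.04%). AN3 was the least steady, from 3.88 to 20.6 CPM with a median of 7.47 (43.4%). The GRF genes and ANT lay between, with GRF3 from 17.4 to 49.0 CPM, GRF1 from 12.6 to 30.2 CPM, GRF2 from 7.62 to 14.5 CPM, GRF5 from 6.17 to 11.2 CPM and ANT from 11.8 to 33.5 CPM. In the 28 leaf libraries AN3 (89.6%) and KLU (84.0%) varied most, both at low counts, and BB least (15.4%).

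**Figure D1:**
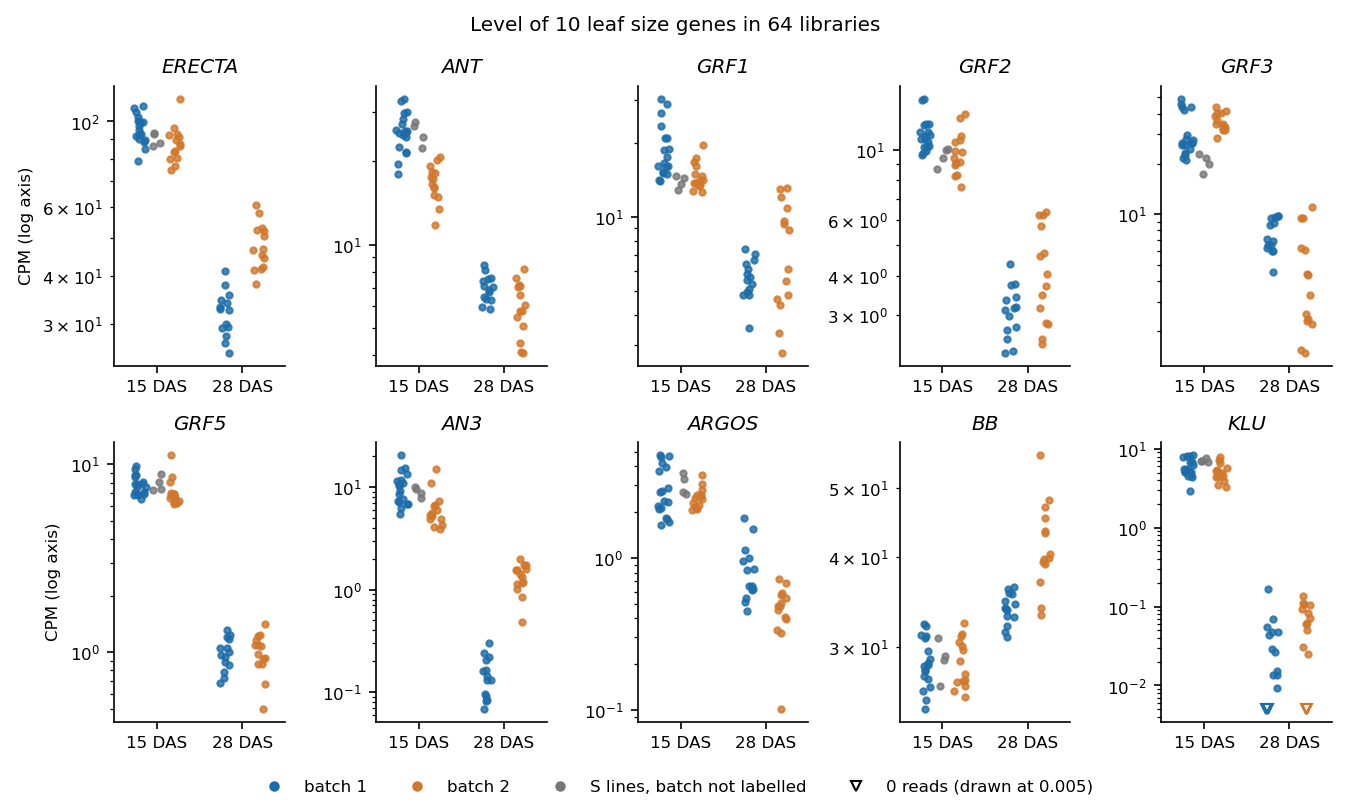
CPM (log axis) of each gene in all 64 libraries at 15 DAS (seedlings) and 28 DAS (leaves), with points coloured by batch and open triangles for 0 reads. Levels are lower at 28 DAS in 9 panels and not in that of BB (lower there with plain library sizes), and AN3 separates by batch at 28 DAS.

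The question for the parents was whether Ler and C24 differ in these genes. AN3, the GRF coactivator, was higher in Ler seedlings than in C24 seedlings in both batches, by a little over 1 on the log2 scale, and no other member was called at either age. In batch 1 the pools held 11.8 and 20.6 CPM in Ler and 7.29 and 6.86 CPM in C24. In batch 2 they held 15.0 and 11.1 CPM in Ler and 6.56 and 5.38 CPM in C24. Every Ler pool lay above every C24 pool. The log2 difference was 1.19 ± 0.27 in batch 1 (edgeR adjusted p = 0.00757) and 1.13 ± 0.28 in batch 2 (edgeR adjusted p = 0.0058). Of the 10 members 1 was thus called in each batch, where 6.58% and 18.8% of all tested genes were called.

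The AN3 call rested on few pools. In batch 1 it was lost without the first C24 pool (1.25, edgeR adjusted p = 0.0544), the second C24 pool (1.14, adjusted p = 0.0822) or the second Ler pool (0.73, adjusted p = 0.23), and with the smallest Ler seedlings (9.09 and 13.3 CPM) in place of the Ler pools (0.66, adjusted p = 0.104). In batch 2 it was lost without the second C24 pool (1.00, edgeR adjusted p = 0.0811) or the first Ler pool (0.90, adjusted p = 0.0829). The difference stayed above 0 under every alternative run, at 0.66 to 1.55 in batch 1 and 0.90 to 1.32 in batch 2. Markers of the shoot meristem and of dividing cells moved with it in batch 2. There STM (1.20), KNAT1 (1.13) and CLV1 (0.76) of 8 meristem markers and KN (0.82) and CDKB2;1 (0.74) of 6 division markers were called higher in Ler, whereas in batch 1 none of these 14 markers was called. Flower organ markers were called higher in Ler for 2 of 8 genes in batch 1 and 5 of 8 in batch 2. The part of these cells in the AN3 difference was not tested, and in such pools fewer cells that express a gene and less of its RNA per cell cannot be told apart.

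ERECTA mRNA was not called different between Ler and C24 in either batch or at either age, except with a replicate block in batch 2 seedlings. In batch 1 seedlings C24 held 99.5 and 108.5 CPM and Ler 89.6 and 109.8 CPM, and in batch 2 C24 held 83.5 and 87.6 CPM and Ler 114.5 and 96.1 CPM. The pools of the parents overlapped in batch 1 and not in batch 2. The log2 differences of Ler from C24 were −0.06 ± 0.13 and 0.31 ± 0.13 at 15 DAS and −0.23 ± 0.14 and −0.16 ± 0.14 at 28 DAS (edgeR adjusted p = 0.894, 0.109, 0.317 and 0.559). When replicate letters, for which the labels give no shared source, entered as a block, ERECTA was called higher in Ler in batch 2 seedlings (0.30 ± 0.09, edgeR adjusted p = 0.0217). The 95% intervals ran from −0.32 to 0.19 in batch 1 seedlings, 0.05 to 0.56 in batch 2 seedlings, −0.50 to 0.04 in batch 1 leaves and −0.43 to 0.11 in batch 2 leaves.

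At 28 DAS none of the 9 members tested was called between the parents, against 13.5% of all genes in batch 1 and 13.1% in batch 2. With the replicate block GRF2 was called lower (−0.72, edgeR adjusted p = 0.034) and BB higher (0.33, adjusted p = 0.0323) in Ler of batch 2. The leaf libraries of batch 2 with the same letter deviated together, with correlations of 0.508 to 0.711 between groups of letters A and B. The parents, with letters C and D, correlated at 0.621. Groups of letters A and B correlated as much with the parents (0.546 to 0.751), so this was not particular to a shared letter. KLU had too few reads to be tested in leaves. Differences of the 9 ran from −0.78 (AN3) to 0.62 (ARGOS) in batch 1 and from −0.73 (GRF2) to 0.45 (ANT) in batch 2. Genes related to the members did differ in leaves. Of 5 relatives of KLU, CYP78A6 and CYP78A8, cytochromes P450 of the same family, were called higher in Ler in both batches (1.21 ± 0.27 and 1.06 ± 0.27 for CYP78A6, 1.18 ± 0.28 and 1.17 ± 0.28 for CYP78A8, log2).

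In seedlings of batch 2 the related genes called higher in Ler were led by TMM (33.5 against 16.5 CPM, 1.03 ± 0.14), a receptor-like protein that works with ERECTA in stomatal spacing, and by ERL1 (0.69 ± 0.22), an ERECTA paralog. GRF7 was also called higher (0.54 ± 0.18), and TCP24, a TCP factor that restrains division at the leaf margin, was called lower (−0.52 ± 0.17). In all, 5 of 44 related genes were called higher and 1 lower in that comparison, where 18.8% of all tested genes were called. In batch 1 seedlings SAMBA, a regulator of the anaphase-promoting complex, was the only 1 of the 44 called (1.09 ± 0.16), where 6.58% of all genes were. In batch 2 it was not among those called.

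**Figure D2:**
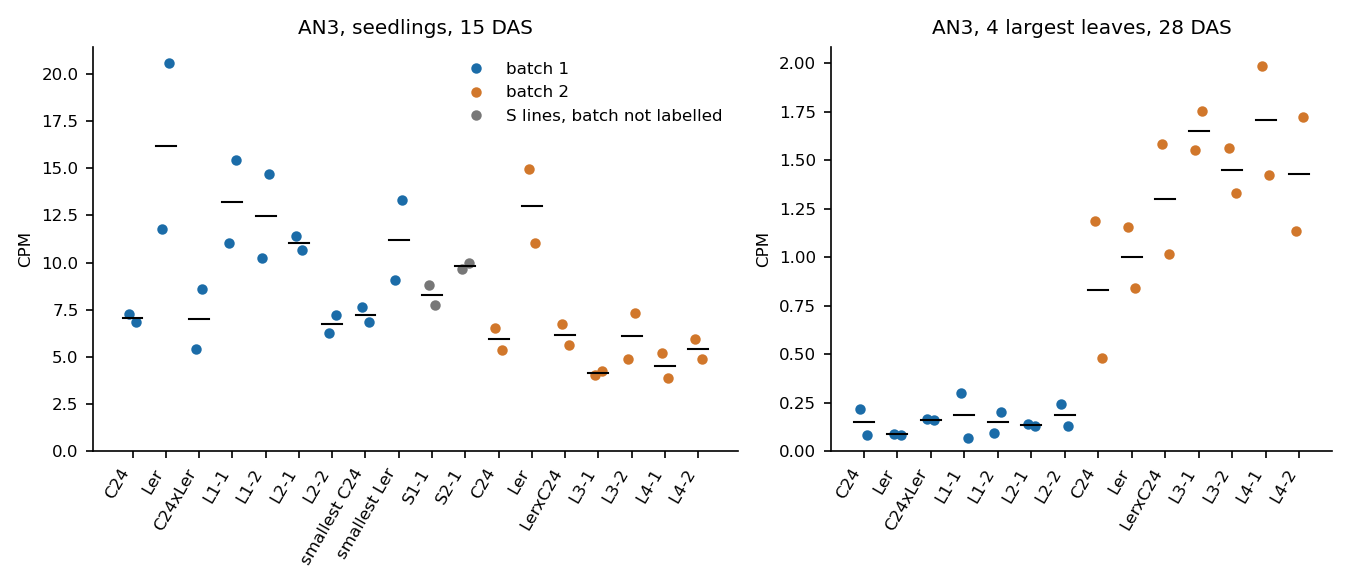
AN3 in CPM by group, with a point per pool and a bar at the group mean, for seedlings (left) and leaves (right, on an axis of a smaller range). In seedlings the Ler pools lie above the C24 pools of their batch and lines L1-1, L1-2 and L2-1 lie above every batch 2 line, and in leaves every batch 2 pool lies above every batch 1 pool.

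The next question was whether F1 hybrids and F4 lines keep the mid-parent level, taken as the mean of the parents' counts within a batch and age, which all these comparisons of a batch share. No member was called in either F1 at either age. In edgeR 0.209% (batch 1) and 0.0166% (batch 2) of all genes were called at 15 DAS, and 0.0144% and 0.0289% at 28 DAS, so few calls were to be had in any set of genes. For AN3 the F1 seedlings held 5.41 and 8.58 CPM (C24xLer) and 6.73 and 5.63 CPM (LerxC24), below the Ler pools of their batch. The C24xLer pools lay on both sides of the C24 pools. The first LerxC24 pool lay just above the C24 pools of its batch and the second between them. The log2 differences of the F1s from the mid-parent were −0.73 ± 0.26 and −0.60 ± 0.26 (edgeR adjusted p = 0.875 and 0.995). For KLU the C24xLer seedlings held 2.96 and 4.73 CPM, against 5.60 to 8.37 CPM in the parents of batch 1, a difference of −0.91 ± 0.26 that was not called either (edgeR adjusted p = 0.433).

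AN3 was the only member called in the F4 lines. The 4 L lines of batch 2, averaged on the log scale, lay −0.91 ± 0.20 from the mid-parent in seedlings (edgeR adjusted p = 0.0143), where 1.96% of all genes were called. The standard error and p of such an average cover the spread of pools within groups, not that among lines. Of the 8 single lines, L3-1 (−1.18 ± 0.27, edgeR adjusted p = 0.0208) and L4-1 (−1.06 ± 0.26, adjusted p = 0.0425) were called, and across these tests of single lines 2.0% of gene and line pairs were called at 15 DAS. L3-2 (−0.62) and L4-2 (−0.78) were not called. With the replicate block L4-2 was called too (−0.78, edgeR adjusted p = 0.0359). The pools were 4.045 and 4.24 CPM in L3-1, 4.90 and 7.32 in L3-2, 5.20 and 3.88 in L4-1 and 5.93 and 4.895 in L4-2. The L3-1 and L4-1 pools were below both C24 pools of their batch, and the L3-2 pools lay on both sides of them. The first L4-2 pool lay between the C24 pools and the second below both. Without the mid-parent made from the first pools the average of the lines was no longer called (−0.70, edgeR adjusted p = 0.332), nor without that from the second pools (−1.09, adjusted p = 0.0577). L3-1 and L4-1 each lost the call without either of their own pools or without the first mid-parent library, and L4-1 also without the second. Flower organ markers were called lower in these lines for 2 of 8 genes, and their part was not tested.

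In batch 1 the lines were split. L1-1 (11.0 and 15.4 CPM), L1-2 (10.2 and 14.7) and L2-1 (11.4 and 10.6) held AN3 above both C24 pools of the batch. L2-2 held 6.26 CPM, below both C24 pools, and 7.22 CPM, between them. Only the second pools of L1-1 and L1-2 lay between the Ler pools (11.8 and 20.6 CPM). Both L2-1 pools lay below them. The average over lines, −0.15 ± 0.20, spans this split and was not called, and 1.34% of all genes were called for it. The difference between the lines of the 2 batches was not tested. At 28 DAS no member was called in the lines, averaged (0.779% and 1.35% of all genes called in batches 1 and 2) or single (0.823% of gene and line pairs).

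Some genes near AN3 differ so much between the parents that the level in a line can be placed on a log scale from C24 (0) to Ler (1), with levels below 0.25 read as that of C24 and above 0.75 as that of Ler. The retroelement-derived gene SADHU5-2 (AT5G27927, chr5:9956859-9957640, 689.8 kb from AN3) held 0.144 CPM in C24 and 4.40 CPM in Ler seedlings of batch 1, and 0.0842 and 8.79 CPM in batch 2. L1-1, L1-2 and L2-1 held it at 7.21, 7.18 and 4.54 CPM, at or above Ler. L2-2 held 0.176 CPM, and the 4 lines of batch 2 held 0.0615 to 0.189 CPM, at the level of C24. The 3 lines with AN3 above the C24 pools were thus those at the Ler level of SADHU5-2, and the 5 others were at the C24 level. Lines with the same first number may not be independent, so these are not 8 separate cases. The F1s also stood high on this scale (0.96 and 0.84), so a line with both alleles cannot be told apart from a Ler line by it. A nearer gene on the same side, AT5G28463, was between the parents in all 8 lines (0.36 to 0.72). Genes that could be read in leaves gave a mixed picture. L1-1 and L1-2 were at the Ler level for 3 of 4 genes and the lines of batch 2 for none. C24xLer was itself at the C24 level for 3 of these 4 genes and LerxC24 for 2, so a line with both alleles cannot be told apart from a C24 line by most of them. L2-1 and L2-2 were both at the Ler level for AT5G28450 (273.3 kb away) and at the C24 level for AT5G28350 (320.1 kb away), although they differed in AN3 in seedlings. The alleles of AN3 itself were not read.

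The same scale was read for ERECTA. In seedlings AT2G24750, AT2G24755 and AT2G24760, 658.6 to 662.1 kb away and with an overlap between AT2G24755 and AT2G24760, were at the C24 level in L1-1, L1-2, L2-1, L2-2, L3-1 and L4-1 (3 of 3 genes in each line). L3-2 and L4-2 stood at 0.70 to 0.86 and 0.71 to 0.82, inside the range of the F1s (0.60 to 0.90). In leaves CESA10, AT2G25550 and SPIK, 309.4 to 335.8 kb away, were at the C24 level in the batch 1 lines and L4-1, and L4-2 stood at 0.42 to 0.53 beside 0.36 to 0.48 in LerxC24. L3-1 (0.24 to 0.27) and L3-2 (0.23 to 0.30) were at the C24 level for 1 of 3 genes and just above it for the others, and C24xLer itself (0.17 to 0.26) was at it for 2 of 3. In leaves a line with both alleles therefore cannot be told apart from a C24 line by these genes. ERECTA itself in seedlings of the 8 lines ran from 74.9 to 103 CPM with no line called.

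**Figure D3:**
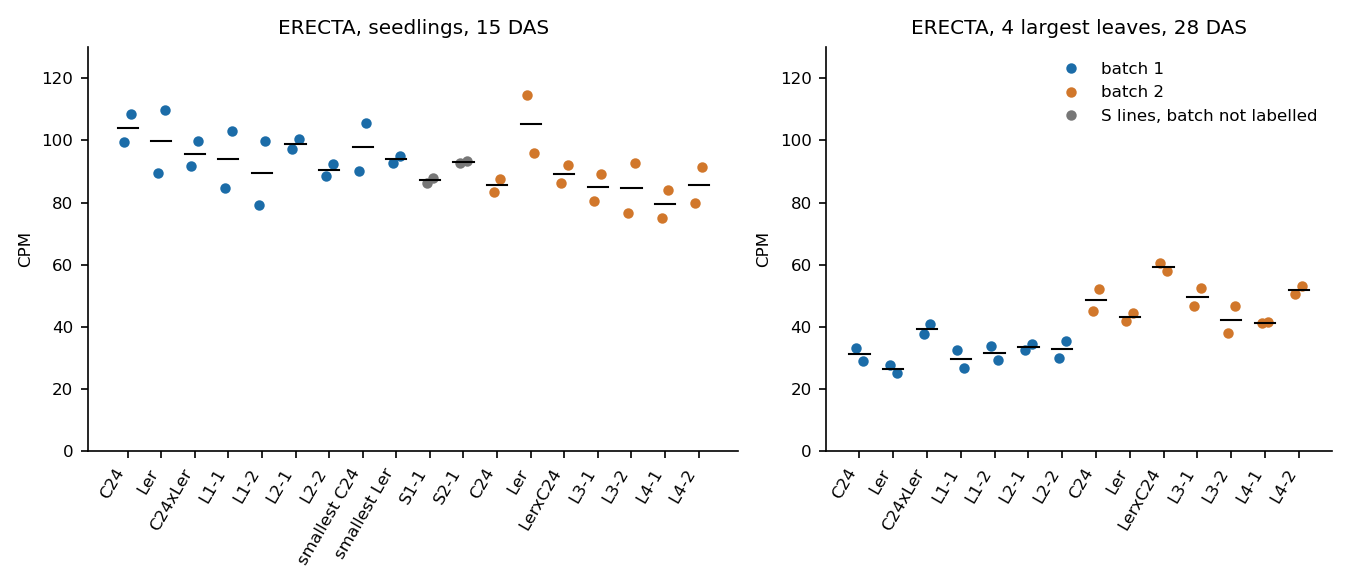
ERECTA in CPM by group, with a point per pool and a bar at the group mean, for seedlings (left) and leaves (right) on the same axis. All seedling pools lie above all leaf pools, and in leaves batch 2 lies mostly above batch 1.

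GRF2 and ANT stood near the threshold in the lines, and their calls depended on the tool. GRF2 in the averaged batch 2 lines lay −0.39 ± 0.10 from the mid-parent in seedlings (edgeR adjusted p = 0.0642). Its 8 line pools ran from 7.62 to 9.92 CPM, all below the parent pools of batch 2, which ran from 10.6 to 13.0 CPM. It was called in DESeq2 (adjusted p = 0.0328), with the mid-parent on the log scale (edgeR adjusted p = 0.00504), with the replicate block (adjusted p = 0.0311) and without the second L3-2 pool (adjusted p = 0.0266). ANT was lowest of all seedling pools in L4-2, at 11.8 and 13.4 CPM against 17.2 to 20.6 CPM in the parents of batch 2, a difference of −0.54 ± 0.17 (edgeR adjusted p = 0.0749). It too was called in DESeq2 (adjusted p = 0.0448), with the mid-parent on the log scale (edgeR adjusted p = 0.0254) and with the replicate block (adjusted p = 0.0076).

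ARGOS showed a split by pool in the batch 1 lines. Its second pools held 3.955 to 4.66 CPM in L1-1, L1-2, L2-1 and L2-2 and its first pools 1.81 to 2.32 CPM, beside 1.72 to 2.89 CPM in the parents of that batch. The second pools lay above every parent pool and the first pools did not. C24xLer held 4.75 and 3.70 CPM, above both parents, with a difference of 0.83 ± 0.42 from the mid-parent that was not called (edgeR adjusted p = 1.0). In leaves the second pool of L4-2 held the least ARGOS of all, 0.101 CPM from 3 reads.

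S1-1 and S2-1 were set against the batch 1 mid-parent, since the protocols place an S line in batch 1 without saying which. No member was called in either, where 3.17% (S1-1) and 2.63% (S2-1) of all genes were. GRF3 was lowest in the pools of S1-1 among all seedling pools, at 17.4 and 19.9 CPM, beside 22.8 and 21.7 CPM in S2-1 and 26.1 to 45.7 CPM in the parents of batch 1. Its difference in S1-1 was −0.93 ± 0.28 (edgeR adjusted p = 0.0766), and GRF1 stood at −0.70 ± 0.28 (adjusted p = 0.224). GRF3 was called in DESeq2 (−0.93, adjusted p = 0.0299) and with the mid-parent on the log scale (−0.94, edgeR adjusted p = 0.036). Without the first mid-parent library it was −0.50 (edgeR adjusted p = 0.748) and without the second −1.27 (adjusted p = 0.0304). With the replicate block GRF1 and GRF3 were called lower in S1-1 (−0.66 and −0.89, edgeR adjusted p = 0.0111 and 0.00331) and in S2-1 (−0.51 and −0.63, adjusted p = 0.0454 and 0.0323). Flower organ markers were called higher in S1-1 for 4 of 8 genes and in S2-1 for 2 of 8.

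The smallest seedlings asked whether a small plant of the same parent differs. No member was called in smallest Ler seedlings, where 1.3% of all genes were called, and none in smallest C24 seedlings, where 0.0% were (450 genes had an unadjusted p below 0.05 in edgeR). Member differences ran from −0.54 (AN3) to 0.05 (GRF2) in Ler and from −0.11 (BB) to 0.08 (ANT) in C24. TMM was called higher in the smallest Ler seedlings (42.4 against 27.2 CPM, 0.63 ± 0.14, edgeR adjusted p = 0.0191), the only one of 44 related genes.

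Leaves at 28 DAS were set against seedlings at 15 DAS in 8 comparisons, C24, Ler, the F1 and the averaged L lines of each batch. AN3, KLU, GRF5, GRF3, ANT, ARGOS, GRF2 and ERECTA fell in all 8, GRF1 fell in 6, and BB rose in 4. Members called were 9 of 10 in C24 of batch 1 (60.4% of all genes called), 8 in C24 of batch 2 (56.8%), 9 in Ler of batch 1 (58.3%) and 10 in Ler of batch 2 (58.7%). They were 9 in C24xLer (56.3%), 9 in LerxC24 (57.7%) and 10 in the L lines of both batches (78.8% and 79.3%). The median log2 change of the members was −1.56 to −2.17 beside −0.06 to −0.12 over all genes.

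KLU fell furthest. In C24 of batch 1 its 1539 reads in the seedling pools stood against 2 in the leaf pools, a ratio of 559 (exact 95% interval 155 to 4623, counting error only), and in Ler of batch 1 1410 reads stood against 2 (593, 164 to 4900). The L lines gave better counted ratios, 4141 against 34 reads in batch 1 (95.7, 68.4 to 138) and 3382 against 37 in batch 2 (56.3, 40.8 to 80.1). Some of its relatives went the other way. CYP78A8 rose in all 8 comparisons, by 1.07 ± 0.13 (L lines of batch 1) to 3.35 ± 0.28 (Ler of batch 2), and 3 of the 5 relatives rose and 1 or 2 fell in each comparison. With plain library sizes 1 to 3 of the 5 rose, CYP78A8 among them in all 8.

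AN3 fell next furthest in batch 1, and by less in batch 2. From seedlings to leaves it went from 7.29 and 6.86 CPM to 0.219 and 0.0819 CPM in C24 of batch 1, a change of −5.54 ± 0.46, and from 6.56 and 5.38 CPM to 1.19 and 0.479 CPM in C24 of batch 2, a change of −2.80 ± 0.38. In Ler the changes were −7.51 ± 0.50 and −3.69 ± 0.39. No seedling pool overlapped a leaf pool. Leaf libraries of batch 1 held 4 to 44 AN3 reads each, so the low end is loosely counted. GRF5 fell by 2.66 to 3.21 and GRF3 by 1.76 to 3.14. The part of miR396 in the falls of the GRF genes was not tested.

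ANT fell by 1.26 to 2.02, ARGOS by 1.44 to 2.68 and GRF2 by 1.05 to 2.11. GRF1 fell by 0.92 to 2.25 where called, and stood at −1.04 ± 0.48 in C24 of batch 2 (edgeR adjusted p = 0.0658) and −0.69 ± 0.48 in LerxC24 (adjusted p = 0.22). Single leaf pools moved both. In C24 of batch 2 GRF1 was −0.63 without the first leaf pool (edgeR adjusted p = 0.403) and −1.59 without the second (adjusted p = 0.0323), and in LerxC24 it was −0.20 (adjusted p = 0.794) and −1.43 (adjusted p = 0.0454). It was also called in C24 of batch 2 by DESeq2 (adjusted p = 0.0438), and in both with plain library sizes (edgeR adjusted p = 0.00188 and 0.00994) and with the replicate block (adjusted p = 1.75e-06 and 9.78e-05). ERECTA fell by 0.59 to 1.91. Its pools went from 99.5 and 108.5 CPM to 33.2 and 29.2 CPM in C24 of batch 1 and from 83.5 and 87.6 CPM to 45.3 and 52.1 CPM in C24 of batch 2.

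BB, which limits growth, did not fall on this scale. It rose in Ler of batch 2 (0.62 ± 0.15), LerxC24 (0.51 ± 0.15) and the L lines of batch 1 (0.25 ± 0.07) and batch 2 (0.61 ± 0.07). In Ler of batch 2 it went from 27.0 and 30.1 to 48.0 and 39.8 CPM, with no overlap. The direction of BB depended on scaling. TMM moved leaves against seedlings by 0.687 on the log2 scale, and with plain library sizes BB was lower in leaves in all 8 comparisons (−0.14 to −0.50). It was then called lower in C24 of both batches, C24xLer and the L lines of both batches. With TMM and the replicate block it was also called higher in C24 of both batches (0.22 and 0.25, edgeR adjusted p = 0.0264 and 0.0126) and in Ler of batch 1 (0.29, adjusted p = 0.00485). The changes of the other 9 genes were more negative with plain sizes. AT3G63540, which shares 91 bases with BB on its strand, had a median of 119.5 CPM in seedlings and 242.3 CPM in leaves. CCD1, which shares 24 bases on the other strand, had 235.2 and 521.4 CPM. The part of reads from these genes in the BB level was not tested.

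Some calls of age rested on 1 library. In Ler of batch 1 GRF3 lost its call without the first seedling pool (−1.51, edgeR adjusted p = 0.056) and ARGOS without the first leaf pool (−1.12, adjusted p = 0.0897). In Ler of batch 2 GRF1 lost it without either seedling pool (−1.06 and −1.29, edgeR adjusted p = 0.132 and 0.0591) or without the first leaf pool (−0.76, adjusted p = 0.309). GRF1 lost it in C24xLer without the first seedling pool (−1.34, edgeR adjusted p = 0.05). In LerxC24 GRF2 lost it without the first leaf pool (−0.69, edgeR adjusted p = 0.101) and BB without the first seedling pool (0.42, adjusted p = 0.058).

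**Figure D4:**
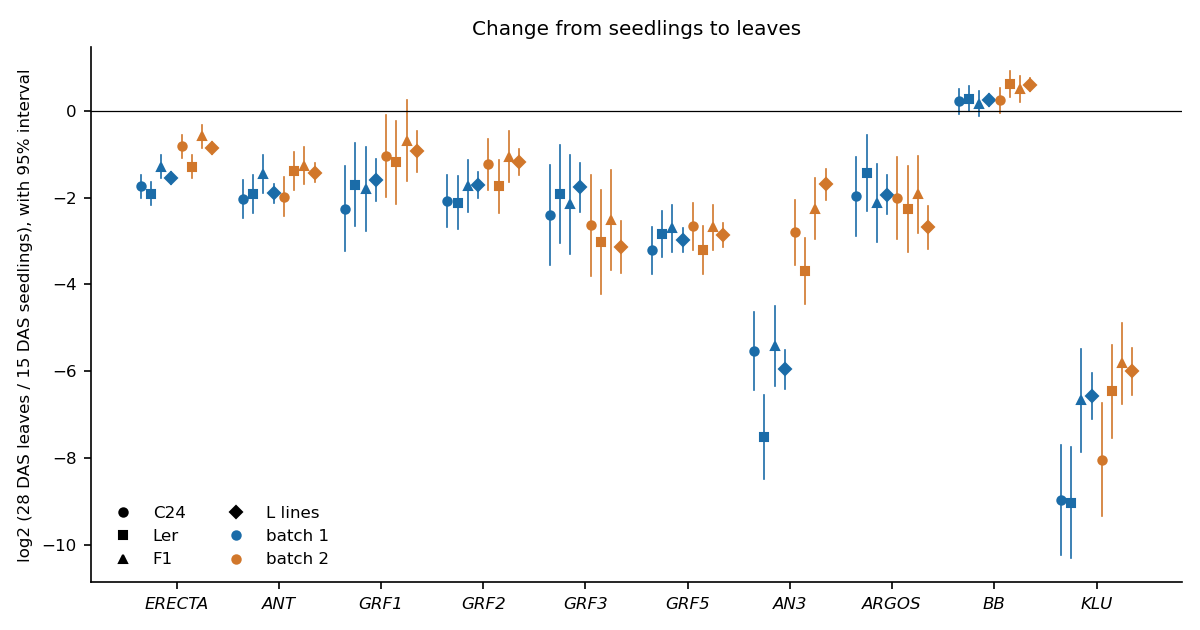
Log2 change from seedlings at 15 DAS to leaves at 28 DAS for each gene in 8 comparisons (symbols for C24, Ler, F1 and L lines, colours for batches), with 95% intervals from the edgeR fit. KLU lies lowest, AN3 comes next in batch 1 and separates by batch, and BB lies above 0 in all 8, where plain library sizes put it below 0.

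Over all tested genes, 30.2% to 43.9% fell and 25.3% to 35.6% rose in these 8 comparisons. Among 7 GRF and GIF relatives 5 to 7 fell in each comparison and none rose, led by GRF9 (−2.68 to −3.98). Of 13 genes of the ERECTA pathway 7 to 12 fell, led by EPF2 (−2.67 to −4.91), a peptide that ERECTA-family receptors read in stomatal spacing, while 0 to 3 rose, MPK3 among them in C24 (1.89), Ler (1.08), C24xLer (1.44) and the L lines (1.98) of batch 1. With plain library sizes 7 of 7 and 9 to 13 of 13 fell. Most markers of the meristem and of division also fell. STM and KNAT1, which mark the shoot meristem, fell to 0.0424 to 0.162 CPM in leaf groups (−5.28 to −7.49 and −5.88 to −6.87), 5 to 8 of 8 meristem markers and 4 or 5 of 6 division markers fell. The histone gene HIS4 of the division list rose in 5 of the comparisons (0.17 to 0.68), and CLV1 of the meristem list rose in C24 of batch 2 (0.53). Summed meristem markers overlapped between the ages, at 68.67 to 135.3 CPM in seedlings and 51.1 to 127.8 CPM in leaves. Summed division markers held 95.75 to 149 CPM in seedlings and 61.4 to 120.5 CPM in leaves. Root markers fell for 6 to 8 of 8 genes and none rose, and their sum went from 10.16 to 20.9 CPM in seedlings to 2.94 to 5.35 CPM in leaves, with no overlap. Flower organ markers fell for 3 to 6 of 8 and rose for 1 or 2, with sums of 9.665 to 47.4 CPM and 5.42 to 17.5 CPM. Of 6 green leaf markers 5 or 6 rose in the comparisons of batch 2 and 2 in those of batch 1, where 0 to 4 fell, and their sums were 13070 to 32210 CPM in seedlings and 25370 to 81700 CPM in leaves. The part of these tissues in the falls was not tested.

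The change with age was not shown to differ between Ler and C24 for any member, where 5.78% (batch 1) and 3.92% (batch 2) of all genes were called. The closest was AN3 in batch 1 (−1.97 ± 0.70, edgeR adjusted p = 0.0969). With the replicate block ERECTA was called in batch 2 (−0.46 ± 0.15, edgeR adjusted p = 0.0475).

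The batches differed in leaves for AN3 and ERECTA, and no other tested member was called. ERECTA was higher in batch 2 by 0.64 ± 0.14 in C24 (edgeR adjusted p = 0.00806) and 0.71 ± 0.14 in Ler (adjusted p = 0.00279). Its leaf pools were 45.3 and 52.1 CPM in C24 and 42.0 and 44.4 CPM in Ler of batch 2, against 33.2 and 29.2 CPM and 27.9 and 25.2 CPM in batch 1. No pool of batch 2 overlapped a pool of batch 1 in the parents. AN3 was higher in batch 2 by 2.48 ± 0.56 in C24 (edgeR adjusted p = 0.0104) and 3.52 ± 0.59 in Ler (adjusted p = 0.000922), and the lines repeated it, with 1.14 to 1.99 CPM in every batch 2 line pool and 0.0681 to 0.303 CPM in every batch 1 line pool. These are 2 of 9 tested members in each parent, where 8.39% (C24) and 9.15% (Ler) of all genes were called. The replicate block added GRF1 (0.81, edgeR adjusted p = 0.00793) and GRF2 (0.78, adjusted p = 0.0258) in C24 and GRF3 (−1.21, adjusted p = 0.00219) and BB (0.34, adjusted p = 0.0309) in Ler. These comparisons of batches were not tested with plain library sizes. On that scale the BB pools of Ler overlapped, at 29.0 and 30.1 CPM in batch 1 and 33.5 and 28.7 CPM in batch 2. The ERECTA means of C24 were then 26.1 CPM in batch 1 and 35.5 CPM in batch 2.

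In C24 both calls rested on single pools. ERECTA lost its call without the second C24 pool of batch 1 (0.54, edgeR adjusted p = 0.0926) or the second of batch 2 (0.52, adjusted p = 0.103), and AN3 without the second of batch 1 (1.94, edgeR adjusted p = 0.117) or the first of batch 2 (1.67, adjusted p = 0.193). In Ler both stayed called whichever pool was left out. Markers of green leaf tissue moved with the batch. Their sum over 6 genes was 25370 to 40100 CPM in batch 1 leaves and 66560 to 81700 CPM in batch 2 leaves, and 4 (C24) and 5 (Ler) of the 6 were called higher. Division markers summed to 87.15 to 120.5 CPM in batch 1 and 61.4 to 96.9 CPM in batch 2. Light tubes and other differences between the batches cannot be told apart.

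The change with age was tested for a difference between batches after the data were seen. It was smaller in batch 2 for ERECTA (difference 0.92 ± 0.19 in C24 and 0.62 ± 0.19 in Ler) and AN3 (2.74 ± 0.59 and 3.82 ± 0.61), again 2 of 10 members in each parent beside 13.4% (C24) and 10.9% (Ler) of all genes. With the replicate block GRF1 (1.08, edgeR adjusted p = 0.0013) and GRF2 (0.83, adjusted p = 0.0135) were also called in C24 and GRF3 (−1.27, adjusted p = 0.00182) in Ler.

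At 15 DAS no member was called between batches, while 14.3% (C24) and 18.5% (Ler) of all genes were. ANT came closest, at −0.51 ± 0.17 for batch 2 against batch 1 in C24 (edgeR adjusted p = 0.0501) and −0.49 ± 0.17 in Ler (adjusted p = 0.0517). With the replicate block ANT was called in both (edgeR adjusted p = 0.00465 and 0.00446) and ERECTA in C24 (−0.26, adjusted p = 0.0459). The seedling pools held ANT at 24.5 and 33.0 CPM in C24 and 22.5 and 28.3 CPM in Ler of batch 1, and 20.6 and 19.1 CPM and 18.3 and 17.2 CPM in batch 2.

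Between the batches of leaves, 4 of 43 related genes tested were called higher and 2 lower in batch 2 in C24. In Ler 3 were called higher and 1 lower. Over all genes 8.39% (C24) and 9.15% (Ler) were called. TCP2 (1.46 and 1.19 in C24 and Ler), CYP78A9 (1.29 and 1.11) and ERL2 (1.08 and 0.96), an ERECTA paralog, were called higher in batch 2. TCP3 was called lower (−1.06 and −1.35). TCP2 and TCP3 are both CINCINNATA-class factors that push leaf cells out of division.

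F1 leaves held more ERECTA than either parent of their batch, without a call. LerxC24 held 60.7 and 58.1 CPM and C24xLer 37.7 and 41.1 CPM, and neither overlapped the pools of its parents. Against the mid-parent the differences were 0.39 ± 0.14 and 0.48 ± 0.14 (edgeR adjusted p = 0.912 and 0.888). How many of all genes lay outside both parents in this way was not counted, so the lack of overlap is a description of these pools only.

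GRF1, GRF2 and GRF3 differed between the pools of a group in a repeated way. In leaves of batch 2 the second pool was higher than the first in all 7 groups for each of them, with a median step on the log2(CPM + 1) scale, which understates steps of low genes, of 1.1 for GRF1 (0.87 to 1.64), 0.69 for GRF2 and 1.11 for GRF3 (1.02 to 1.70). GRF3 went from 2.22 to 9.49 CPM in C24, from 2.525 to 6.15 in Ler and from 3.29 to 11.0 in LerxC24. GRF5 did not share the step (median −0.17, higher in 1 of 7 groups), nor did GRF4 (−0.00), GRF7 (0.22), GRF8 (0.01) or GRF9 (0.07). GRF9 held means of only 0.200 to 0.233 CPM in batch 2 leaves and GRF5 a median of 1.03 CPM, where this scale can show little of a step. Outside the GRF genes ANT was also higher in the second pool of all 7 groups (0.32), and BB was lower in all 7 (−0.26). A repeated sign was thus not particular to GRF1, GRF2 and GRF3. GRF1, GRF2 and GRF3 carry the miR396 site printed above, and so do GRF4, GRF7, GRF8 and GRF9 with 2 or 3 differences. The part of miR396 in the step was not tested.

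SBE2.1, which overlaps GRF3 by 5 bases on the other strand, had the same step (1.14, 7 of 7 groups), and 28.8% of tested genes had 1 sign in all 7 groups of these leaves. In seedlings of batch 1 the step ran the other way, with GRF1 at −0.54 and GRF3 at −0.57 (higher in 0 of 9 groups each), where 12.8% of genes had 1 sign throughout. SBE2.1 did not follow there (0.11, higher in 5 of 9 groups). GRF2 was lower in 7 of the 9 groups, and ERECTA (0.12) and BB (0.19) were higher in all 9. In leaves of batch 1 GRF3 was lower in the second pool of all 7 groups (−0.33, 10.7% of genes) and SBE2.1 in 6 of 7 (−0.44). ARGOS was higher there in all 7 (0.35). In seedlings of batch 2 none of GRF1, GRF2, GRF3 and GRF5 followed a sign (7.6% of genes), whereas BB was higher (0.17) and ARGOS lower (−0.08) in all 7 groups.

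**Figure D5:**
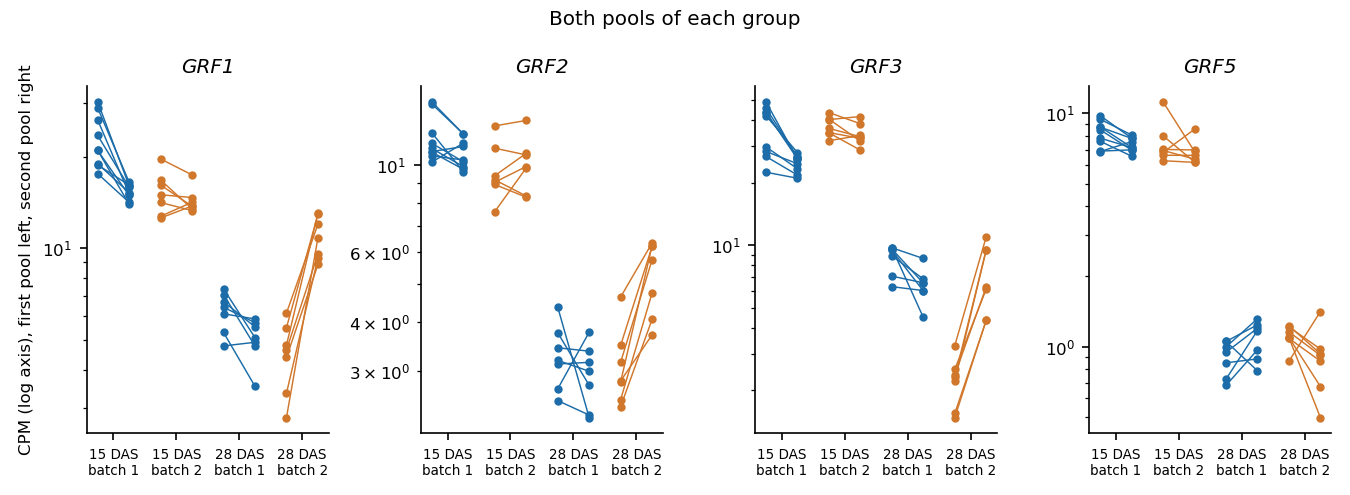
CPM (log axis) of GRF1, GRF2, GRF3 and GRF5 in the first and second pool of each group, joined by lines, by age and batch (blue for batch 1, orange for batch 2). In leaves of batch 2 all 7 lines rise for GRF1, GRF2 and GRF3, and in seedlings of batch 1 all 9 fall for GRF1 and GRF3.

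Across the 18 seedling groups the genes whose level was most like that of ERECTA, by Pearson r of log2(CPM + 1), were ZPR4 (0.847), AT3G18720 (0.824) and BASL (0.823) among 30206 genes. BASL sets the polarity of the stomatal lineage. The closest member was GRF5, at 0.767 and rank 16. Across the 14 leaf groups they were AT4G24140 (0.958), AT1G01170 (0.955) and AT5G45950 (0.954) among 27843 genes, and the closest member was AN3 at 0.831 and rank 914. Among the members GRF1 and GRF2 were the most alike pair in seedlings (0.851, and 0.779 in leaves), GRF5 and KLU followed at 0.824 in seedlings, and in leaves AN3 and BB were the most alike (0.894) and GRF3 and AN3 the most opposed (−0.847). Groups share batches and parents, so these values describe the libraries and no test was made.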

How the data were processed

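RNA-seq was carried out on pools of seedlings and leaves. The authors deposited raw counts per gene and library. FastQC and the TAIR10 build are named per the submitters' processing notes, and for aligner, counter and strand use nothing is given in the sources used here. Reads of C24 and Ler were set against the Columbia reference, so fewer counts of an allele cannot be told apart from its sequence divergence.

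Groups were taken from titles and protocols. Deposited counts were fitted with edgeR 4.0.16 in R 4.3.3 (glmQLFit and glmQLFTest, filterByExpr, TMM), with Benjamini-Hochberg adjustment over all tested genes (30207 at 15 DAS, 27844 at 28 DAS, 30407 for both ages) and a threshold of 0.05. Mid-parent libraries were the mean of C24 and Ler counts of the same letter, scaled to equal depth. The age comparisons used 1 model of both ages. Standard errors are the log2 fold change over the square root of F. For averaged lines, also in the age comparisons, they rest on the spread of pools within groups and not on that among lines. On simulated counts for Ler against C24 in batch 1, 53% of 2-fold and 99% of 4-fold changes were recovered at 15 DAS (29959 genes), and 34% and 97% at 28 DAS (27573 genes).

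All 10 members were named in every comparison. Of 44 related genes in 6 lists, up to 3 rises and 3 falls called per comparison with a mean of at least 1 CPM were named. The members and lists were chosen with earlier results of these data known. Alternatives were DESeq2 1.42.0, its size factors, no filter, a log-scale mid-parent, plain library sizes (added after seeing the data), a replicate block (groups compared over both letters) and leaving out each library. Intervals on reads cover counting error only. Overlap of pools between groups was not counted over all genes, so no share of all genes stands beside it.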

Additional observations from a re-analysis of the deposited data

Results flagged for a closer look

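The change from seedlings to leaves differed between the batches for ERECTA and AN3 in both parents, by a test of the difference itself in the edgeR model of both ages. For ERECTA the difference was 0.92 ± 0.19 on the log2 scale in C24 (edgeR adjusted p = 0.00108) and 0.62 ± 0.19 in Ler (adjusted p = 0.0277). For AN3 it was 2.74 ± 0.59 in C24 (edgeR adjusted p = 0.0017) and 3.82 ± 0.61 in Ler (adjusted p = 7.73e-05). Both genes fell less in batch 2. The batches differed in light tubes, which cannot be told apart from other differences between them.

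The ERECTA difference in Ler was the least firm. It was no longer called with plain library sizes (0.43, edgeR adjusted p = 0.131), or without the second batch 1 seedling pool (0.47, adjusted p = 0.149), the second batch 1 leaf pool (0.55, adjusted p = 0.0951), the second batch 2 seedling pool (0.50, adjusted p = 0.153) or the first or second batch 2 leaf pool (0.66 and 0.58, adjusted p = 0.0524 and 0.0779). The AN3 difference in C24 was lost without the first leaf pool of batch 2 (1.91, edgeR adjusted p = 0.068). Green leaf markers were also higher in batch 2 leaves (66560 to 81700 against 25370 to 40100 CPM summed over 6 genes), and their part in these differences was not tested.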

How the results depend on the processing

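Counts of members called were within 1.5 times the value given above in 348 alternatives and moved in 49, and 4649 of the values for single members kept their side of the threshold, among them 332 uncalled values that changed sign. Of the rest 48 gained a call, 34 lost one and 7 turned with a call on at least 1 side.

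The 7 that turned were BB for leaves against seedlings with plain library sizes. BB called higher with TMM went to −0.14 in Ler of batch 2, −0.22 in LerxC24, −0.37 in the L lines of batch 1 and −0.16 in those of batch 2, the last 2 called lower. BB not called with TMM was called lower at −0.33 in C24 of batch 1, −0.50 in C24 of batch 2 and −0.38 in C24xLer, and in Ler of batch 1 it was −0.29 without a call. The cause was not tested beyond the shift of 0.687 that TMM brings.

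With a replicate block more members were called. The counts went from 1 to 2 for Ler against C24 in batch 2 seedlings, from 0 to 2 for it in batch 2 leaves, from 0 to 2 (C24) and 0 to 1 (Ler) for the batches of seedlings and from 2 to 4 for the batches of C24 and of Ler leaves. They went from 2 to 5 for single L lines and from 1 to 2 for the averaged lines of batch 2 in seedlings, from 0 to 2 for S1-1 and for S2-1, from 0 to 1 for the age change of Ler minus C24 in batch 2 and from 2 to 4 for the age change between batches in C24. The mid-parent of batch 2 is made from letters C and D, which no line has, so it carried no block. Replicate letters are 2 per group, and the labels do not say what a letter shares. Deviations of libraries with the same letter correlated at a median of 0.35 in batch 1 seedlings, 0.164 in batch 2 seedlings, 0.259 in batch 1 leaves and 0.608 in batch 2 leaves. In batch 2 leaves the letters went together in all 10 pairs of groups (0.508 to 0.711), whereas the lowest pair was 0.0598 in batch 1 seedlings, −0.148 in batch 2 seedlings and −0.161 in batch 1 leaves. Groups of letters A and B in batch 2 leaves correlated as much with the parents of letters C and D (0.546 to 0.751).

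DESeq2 called 1 member in place of 0 for the batches of C24 seedlings, S1-1 and the age change of Ler minus C24 in batch 1, and 2 in place of 1 for the batch 2 lines in seedlings. A mid-parent on the log scale gave 2 for those lines, 1 for S1-1 and 5 for single L lines in seedlings. Putting the smallest Ler pools for Ler gave 0 instead of 1 for batch 1 seedlings, and plain library sizes gave 1 in place of 2 for the age change between batches in Ler.

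Leaving out single libraries gave 0 to 1 members for Ler against C24 in batch 1 seedlings, 0 to 2 in batch 2 seedlings, 0 to 1 for the batches of C24 and of Ler seedlings and 0 to 2 for the batches of C24 leaves. It gave 0 to 2 for single L lines and for the averaged lines of batch 2 in seedlings, 0 to 1 for S1-1, 0 to 1 for the age change of Ler minus C24 in batch 1 and 1 to 2 for the age change between batches in each parent. Depth limits AN3 and KLU most, with 4 to 44 AN3 reads per batch 1 leaf library.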

Other observations

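EPF2, which encodes a peptide that restrains entry into the stomatal lineage, was lower in the seedlings of the averaged batch 2 lines (−0.78 ± 0.18, 1.72 against 2.98 CPM, edgeR adjusted p = 0.0276) and of S2-1 (−0.98 ± 0.24, 1.56 against 3.08 CPM, edgeR adjusted p = 0.0311). GRF7 was lower in the same batch 2 lines (−0.55 ± 0.12, edgeR adjusted p = 0.0151). Whether the lines differ between batches in these genes was not tested.

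Relatives of KLU changed differently with age in the parents of batch 1. CYP78A6 and CYP78A8 rose more in Ler than in C24, by 1.32 ± 0.33 (edgeR adjusted p = 0.0123) and 1.16 ± 0.36 (adjusted p = 0.0458) on the log2 scale, and neither was called for this in batch 2.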
